A study of Mus musculus with 10 samples.

Results

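The matrix metalloproteinases (MMPs), the ADAMTS proteases and the tissue inhibitors of metalloproteinases (TIMPs) were examined in mouse ear skin. The members were all genes whose symbol is Mmp, Adamts or Timp followed by a digit, with the ADAMTS-like genes left out. They were 46 of the 41388 genes counted: 23 MMPs, 19 ADAMTS proteases and 4 TIMPs. RNA came from whole ear skin of C57Bl/6 mice, and the series text names MC903 (calipotriol) for both groups, a vitamin D analogue whose application to the skin brings on dermatitis resembling atopic dermatitis, with a dose of 1 nM daily over 12 days stated for the controls. The Littermate group held 4 libraries whose genotype label is WT, and the Experimental group held 6. The genotype label of the Experimental libraries is NaV1.8+ Jak1F/F, whereas the series text calls these mice NaV1.8+ Il4raF/F. The sources used here do not settle which of the 2 floxed genes these mice carried, so the group is called Experimental throughout. NaV1.8 is a sodium channel of sensory neurons, whose cell bodies lie outside the ear, and the labels do not state what its promoter drives. No untreated skin was included, and age, sex and batch are not given in the labels.

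MMPs are zinc-dependent enzymes that are made as inactive precursors and, once activated, cut collagens, other matrix proteins and signalling molecules. ADAMTS proteases are secreted relatives that trim procollagens and cut proteoglycans such as aggrecan and versican. TIMPs bind the active sites of MMPs, and Timp3 also inhibits aggrecanases of the ADAMTS family. The balance of proteases and inhibitors thus bears on how much matrix is broken down. In skin these genes are known from wound repair, hair follicle cycling and inflammation, where fibroblasts, keratinocytes and immune cells each make their own set. RNA levels do not show how much precursor was activated or how much enzyme was inhibited.

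Total counts ran from 12865459 to 14324433 in the Littermate libraries and from 11520348 to 41935183 in the Experimental libraries. Experimental 2 and Experimental 3 were the deepest. A count of 3, the limit a count of 0 allows, stood for 0.0716 to 0.262 CPM (counts scaled to library size) depending on the library, and covers counting error only. Levels are given as CPM scaled with edgeR's TMM factors for comparisons of 1 gene between libraries, and as RPKM, which also divides by gene length, for comparisons between genes. Jak1 was at 310 ± 25.4 CPM (SD, n = 4) in the Littermate and 298 ± 18.5 CPM (SD, n = 6) in the Experimental libraries. Il4ra was at 217 ± 23.5 CPM (SD, n = 4) in the former and 189 ± 46.9 CPM (SD, n = 6) in the latter. Both genes overlapped between the groups, and whole ear skin cannot show a deletion limited to sensory neurons. Nothing in the labels says how the libraries relate to single mice beyond their number, so p-values measure the spread between these libraries.

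No member passed the test between the groups. Of the 46 members, 37 had enough counts to be tested, and 0 had an adjusted p under 0.05 by edgeR's quasi-likelihood test with Benjamini-Hochberg adjustment over 16830 genes. Over all genes 3 passed, which is 0.0178%, with 0.00594% higher and 0.0119% lower in the Experimental group. At an unadjusted p under 0.05, 1 member lay higher in the Experimental group and 8 lay lower, against 3.65% and 8.1% of all genes tested. The member that lay higher was the collagenase gene Mmp13. The 8 that lay lower were the membrane-type MMP genes Mmp14, Mmp15 and Mmp17, the ADAMTS genes Adamts2, Adamts4, Adamts7 and Adamts14, and the inhibitor gene Timp2. The 4 and 6 values did not overlap for 2 members, Mmp13 above and Mmp15 below, against 0.761% and 1.35% of all genes tested in those directions and 2.12% in either. The log2 fold change was below 0 for 27 of the 37 tested members, with a median of -0.21. Over all genes tested it was below 0 for 8489 of 16830, with a median of -0.00. These counts moved with the processing. With the level of Y-linked genes as a covariate, 3 members lay higher and 1 lower at an unadjusted p under 0.05, and 24 lay below 0. Without Experimental 2 and 3, 1 lay higher and 4 lower, with 21 below 0. Without Experimental 6, 1 lay higher and 11 lower, with 30 below 0. Over all genes 5.82%, 7.04% and 13.6% had such a p in these 3 settings. The median of the 33 tested proteases, also -0.21, was -0.08 without Littermate 4, -0.06 with the level of Y-linked genes as a covariate and -0.10 with a GC correction. Y-linked genes were read in every library, at 229 to 301 CPM in the Littermate and 282 to 340 CPM in the Experimental group. That covariate therefore does not divide the libraries by sex, and it partly follows the group. The tested members' transcripts had a median GC content of 53.4%, against 49.7% over all genes tested.

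**Figure D1:**
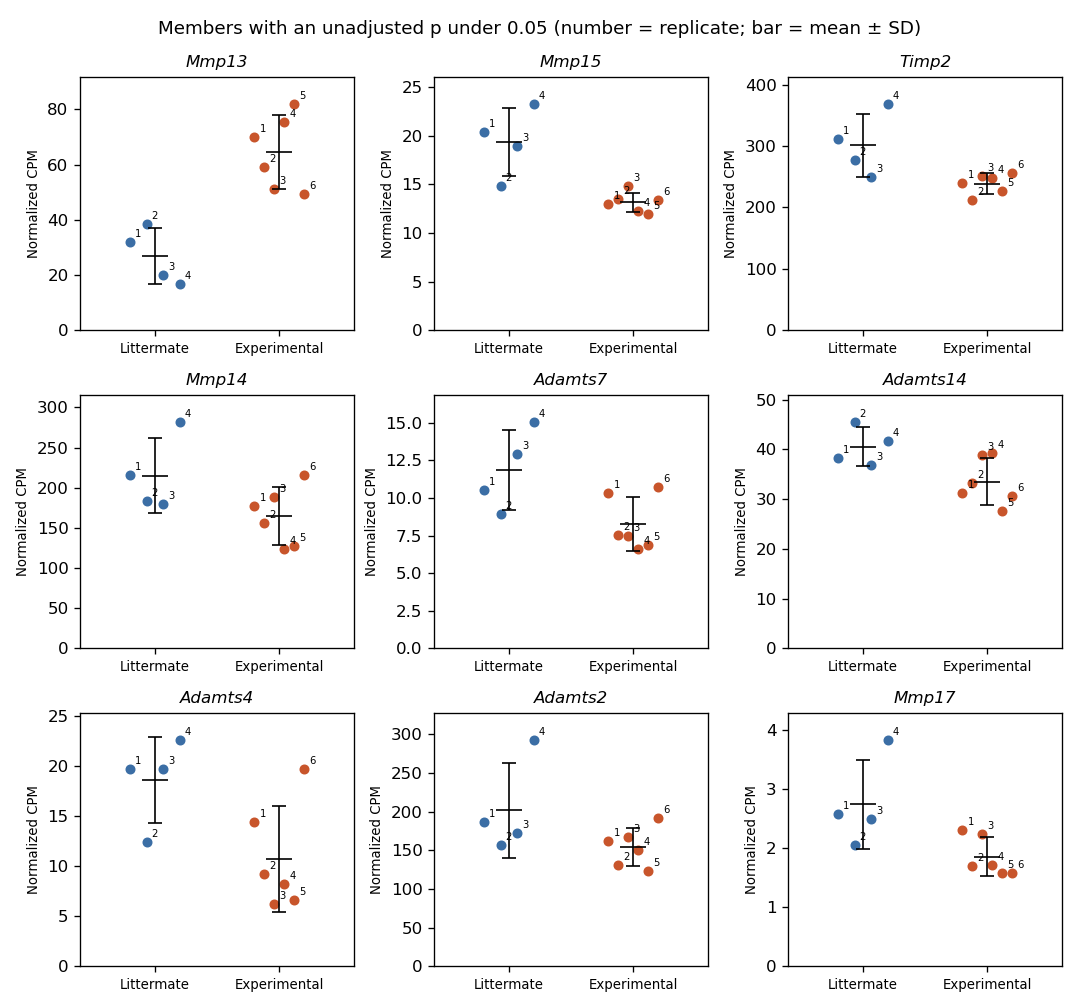
Normalised CPM of the 9 members with an unadjusted p under 0.05, 1 panel per gene, with 1 point per library, 4 Littermate and 6 Experimental, and bars for the mean and SD. Mmp13 lies between 49.4 and 81.8 CPM in the Experimental libraries and between 16.7 and 38.4 CPM in the Littermate libraries, and the other 8 genes have the lower mean in the Experimental group.

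Mmp13 encodes the main interstitial collagenase of rodents, an enzyme that cuts triple-helical fibrillar collagen. It is the gene ENSMUSG00000050578 at chr9:7272514-7283333 on the plus strand of GRCm38 (mm10). In Littermate 1 to 4 it was at 32.0, 38.4, 20.05 and 16.7 CPM. In Experimental 1 to 6 it was at 70.2, 59.1, 51.2, 75.5, 81.8 and 49.4 CPM. Every Experimental library lay above every Littermate library, with Experimental 6 closest to Littermate 2. The means were 26.8 ± 10.2 CPM (SD, n = 4) for the Littermate and 64.5 ± 13.3 CPM (SD, n = 6) for the Experimental libraries, a 2.40-fold difference. On the log2 scale this was 1.26 (SE 0.24, 95% interval 0.72 to 1.80), with an adjusted p of 0.0895 by edgeR. This placed Mmp13 at rank 70 of all genes tested, short of the threshold. The call depended on the tool and on 1 library: the adjusted p was 1.05e-05 with DESeq2, 0.0214 by edgeR without Littermate 2, and up to 0.747 when the level of Y-linked genes was a covariate, with the log2 fold change then at 1.05. That covariate partly follows the group, as given above.

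The other collagenase genes were low. Mmp8, the collagenase of neutrophils, was at 3.13 ± 0.620 CPM (SD, n = 4) in the Littermate and 3.33 ± 1.59 CPM (SD, n = 6) in the Experimental libraries, with a log2 fold change of 0.08 (95% interval -0.58 to 0.74). Mmp1a and Mmp1b, the mouse relatives of human interstitial collagenase, had 12 and 89 counts over all 10 libraries and were not tested. Mmp13 made up 77.4 to 96.1% of the summed RPKM of the 4 collagenase genes in each library. That sum was 11.7 ± 3.86 RPKM (SD, n = 4) in the Littermate and 25.9 ± 4.72 RPKM (SD, n = 6) in the Experimental libraries, and its values did not overlap.

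Mmp13 is the first of 10 MMP genes that lie within 427.1 kb on chromosome 9, from 7272514 to 7699585. Of the 10 genes, Mmp13, Mmp12, Mmp3, Mmp10 and Mmp8 were tested, and only Mmp13 had an unadjusted p under 0.05. The adjusted p was 0.428 for Mmp12, the elastase of macrophages, with a log2 fold change of -0.27. Mmp3 and Mmp10, both stromelysin genes, had log2 fold changes of -0.48 and -0.39, with adjusted p-values of 0.633 and 0.798. Of the 50-base windows along each transcript, 7.99% of those of Mmp3 also occur in Mmp10 and 8.37% of those of Mmp10 in Mmp3, so a small part of their reads cannot be told apart, depending on how the counting treated them. Mmp1a, Mmp1b, Mmp27, Mmp20 and Mmp7 each had at most 89 counts in all.

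**Figure D2:**
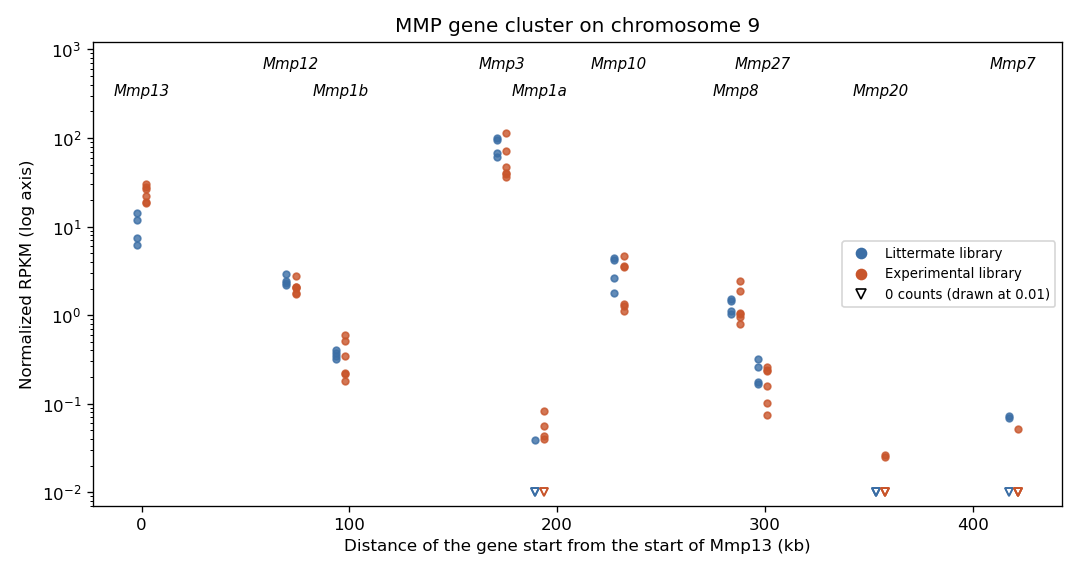
RPKM, on a log axis, of the 10 MMP genes of the chromosome 9 cluster in each library against the distance of each gene's start from the start of Mmp13 in kb, with 1 point per library (4 Littermate, 6 Experimental) and open triangles at 0.01 for 0 counts. Mmp13 at 0 kb has the higher mean in the Experimental group, 24.1 against 10.01 RPKM, and Mmp3 at 173.3 kb has the lower one, 58.1 against 81.0 RPKM.

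The bases before the starts of these neighbouring genes are shown because Mmp13, Mmp3 and Mmp10 hold the same short AP-1 letters close to the start, and only Mmp13 of these had an unadjusted p under 0.05. AP-1, a dimer of Fos and Jun proteins, is a known regulator of collagenase and stromelysin genes. The letters searched were TGACTCA and TGAGTCA, which are each other's reverse complement, so both strands are covered. Each line gives the 120 bases before the start on the plus strand of GRCm38.p6, from RefSeq, with the AP-1 letters in capitals, and Mmp8 is given as a neighbour without them. The windows are chr9:7272394-7272513 for Mmp13, chr9:7445702-7445821 for Mmp3, chr9:7502222-7502341 for Mmp10 and chr9:7558309-7558428 for Mmp8.
Mmp13: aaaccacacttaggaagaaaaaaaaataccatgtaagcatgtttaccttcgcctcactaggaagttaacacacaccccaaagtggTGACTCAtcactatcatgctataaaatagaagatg
Mmp3: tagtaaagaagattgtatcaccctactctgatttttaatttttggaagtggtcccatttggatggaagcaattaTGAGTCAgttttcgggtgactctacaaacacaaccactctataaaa
Mmp10: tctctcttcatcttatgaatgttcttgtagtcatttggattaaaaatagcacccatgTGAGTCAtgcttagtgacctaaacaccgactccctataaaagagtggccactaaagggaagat
Mmp8: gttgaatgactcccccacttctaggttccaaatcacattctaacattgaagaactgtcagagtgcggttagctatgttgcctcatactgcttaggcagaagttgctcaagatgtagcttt

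The AP-1 letters begin 35 bases before the start in Mmp13, 46 in Mmp3 and 63 in Mmp10. The bases just after the start occur in annotated transcripts of Mmp13 and Mmp3 but not of Mmp10 and Mmp8, whose starts are therefore less certain. RefSeq promoters were found for 32 of the 46 members, with 35 windows in all. Within the 250 bases before the start, 7 of the 35 windows held the letters, and all 7 belong to the chromosome 9 cluster. Those not shown are windows of Mmp1a, Mmp1b, Mmp7 and Mmp12. In Mmp12 the letters lie 44 bases before a start at 7347374, inside the gene. The Mmp12 window before 7344397, close to the gene's start at 7344381, lacks them. Mmp7 also had a further window without the letters. Over all 32851 promoters in the table, 4.46% of windows of that length held them. The letters TATAAA, which also appear just before the starts of Mmp13, Mmp3 and Mmp10, were in 9 of the 35 windows and in 7.59% of all promoters. A match is a description of the sequence and does not show binding. In these libraries Jun was at 96.6 ± 4.87 CPM (SD, n = 4) in the Littermate and 81.4 ± 4.10 CPM (SD, n = 6) in the Experimental group, with a log2 fold change of -0.24 and an adjusted p of 0.145 by edgeR.

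The membrane-type MMPs sit on the cell surface, and Mmp14 encodes the one that cuts pericellular collagen and activates the Mmp2 precursor. None of the 6 genes passed the test, and 5 of the 6 log2 fold changes were below 0. Mmp15 (ENSMUSG00000031790, chr8:95352268-95374293, plus strand) was at 20.3, 14.8, 19.0 and 23.2 CPM in Littermate 1 to 4. In Experimental 1 to 6 it was at 12.9, 13.5, 14.8, 12.2, 12.0 and 13.4 CPM. The groups met at 14.8 CPM, where Littermate 2 lay above Experimental 3 by less than rounding shows. The Littermate mean was 19.3 ± 3.50 CPM (SD, n = 4) and the Experimental mean 13.1 ± 1.01 CPM (SD, n = 6). Its log2 fold change was -0.55 (SE 0.11, 95% interval -0.79 to -0.31), with an adjusted p of 0.0834 by edgeR. The adjusted p was 0.00535 with DESeq2, 0.0353 by edgeR with no filter on low counts and 0.00791 without Littermate 2. Over the 22 alternatives run, it was under 0.05 in 5 and at most 0.791. The Mmp15 transcript is rich in GC, at 59.6% against a median of 49.7% over all genes tested. With a GC correction the log2 fold change was -0.40, with an adjusted p of 0.253 by edgeR.

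Mmp14 (chr14:54431604-54441258, plus strand) was at 216, 183, 180 and 281 CPM in Littermate 1 to 4. In the Experimental libraries it ran from 124 to 215 CPM with a median of 167 CPM, and the groups overlapped. The log2 fold change was -0.38 (95% interval -0.76 to -0.01, adjusted p = 0.419 by edgeR), and -0.22 without Littermate 4, the highest library. Mmp17, which encodes a lipid-anchored member, was at 2.58, 2.05, 2.49 and 3.82 CPM in Littermate 1 to 4 and ran from 1.57 to 2.30 CPM with a median of 1.71 CPM in the Experimental libraries. Its log2 fold change was -0.54 (95% interval -0.97 to -0.11, adjusted p = 0.314 by edgeR), and -0.32 without Littermate 4. Littermate 4 was again the highest library, and 3 of the 4 Littermate values lay above every Experimental value. Mmp16, Mmp24 and Mmp25 had log2 fold changes of 0.34, -0.21 and -0.23, and their groups overlapped.

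**Figure D3:**
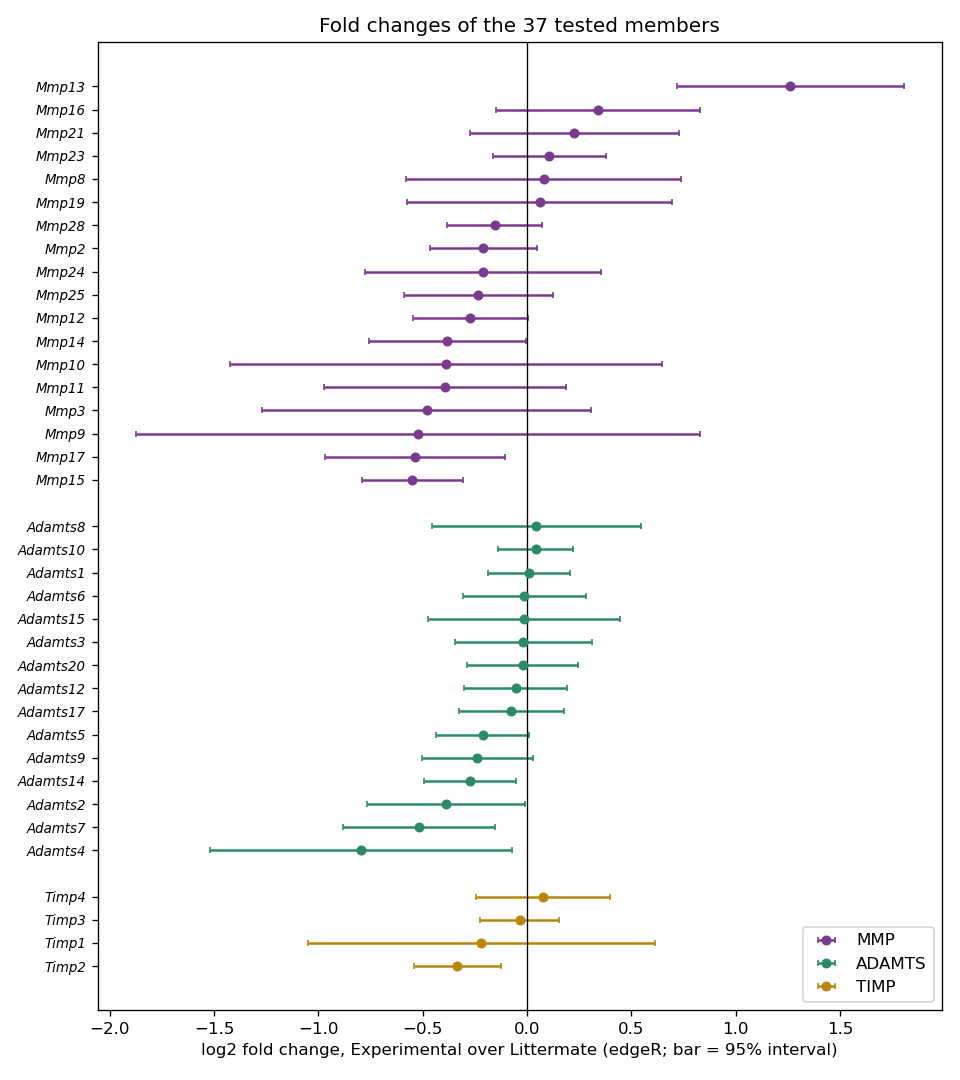
Log2 fold change, Experimental over Littermate, of the 37 tested members with 95% intervals, ordered by value within MMPs, ADAMTS proteases and TIMPs. Mmp13 at 1.26 stands apart on the higher side, Adamts4 at -0.80 is the lowest value, and 27 of the 37 values lie below 0.

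Mmp2 and Mmp9 encode the gelatinases, which cut denatured collagen and basement membrane collagen. Mmp2 (chr8:92827328-92853417, plus strand) was the most abundant member by RPKM, at 209 ± 42.9 RPKM (SD, n = 4) in the Littermate and 181 ± 17.7 RPKM (SD, n = 6) in the Experimental libraries. In CPM, Littermate 1 to 4 were at 672, 582, 490 and 795, and Experimental 1 to 6 were at 595, 559, 546, 510, 469 and 615. The groups overlapped, and the log2 fold change was -0.21 (95% interval -0.46 to 0.05, adjusted p = 0.527 by edgeR), and -0.07 without Littermate 4. Mmp9, a product of neutrophils, macrophages and keratinocytes, was at 32.3, 56.1, 17.7 and 65.9 CPM in Littermate 1 to 4. In Experimental 1 to 6 it was at 66.8, 13.6, 13.2, 18.4, 15.9 and 52.5 CPM, so that Experimental 1 and 6 stood near the highest Littermate libraries and the other 4 near the lowest. The log2 fold change was -0.52 (95% interval -1.87 to 0.83), an interval that spans both directions, and it ran from -0.93 without Experimental 1 to -0.23 without Littermate 4.

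The stromelysins act on many matrix proteins and activate collagenase precursors. Mmp3 was the fourth most abundant member, at 109, 171, 181 and 122 CPM in Littermate 1 to 4 and at 204, 84.5, 65.3, 72.7, 71.3 and 129 CPM in Experimental 1 to 6. Experimental 1 was the highest of all 10 libraries, while 4 Experimental libraries lay below every Littermate library. Its 95% interval for the log2 fold change was -1.27 to 0.31, and the value was -0.78 without Experimental 1. Mmp11, a stromelysin of stromal cells, had a log2 fold change of -0.39 with an adjusted p of 0.599 by edgeR. Of the remaining MMPs, Mmp19, Mmp21 and Mmp23 had log2 fold changes of 0.06, 0.23 and 0.11 and Mmp28 had -0.15, all with overlapping groups. Mmp19 shares 23.1% of its exon bases with Tmem198b, and Mmp24 and Mmp28 share 13.6 and 12.0% with other genes, so without strand in the counting their reads cannot be fully separated.

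Among the ADAMTS proteases the 3 procollagen N-proteinases, Adamts2, Adamts3 and Adamts14, remove the amino-terminal extension of fibrillar procollagens. Adamts2 was at 186, 157, 173 and 292 CPM in Littermate 1 to 4 and ran from 123 to 192 CPM with a median of 156 CPM in the Experimental libraries. The groups overlapped, and the log2 fold change of -0.39 (95% interval -0.77 to -0.01, adjusted p = 0.413 by edgeR) was -0.15 without Littermate 4. Adamts14 was at 38.3, 45.4, 36.8 and 41.8 CPM in Littermate 1 to 4 and ran from 27.6 to 39.3 CPM with a median of 32.3 CPM in the Experimental libraries. Its log2 fold change was -0.27 (95% interval -0.50 to -0.05, adjusted p = 0.317 by edgeR), and -0.14 with a GC correction. Adamts3 had a log2 fold change of -0.02 (95% interval -0.34 to 0.31).

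The 7 proteoglycan-cleaving members cut aggrecan or versican. Adamts1 was the most abundant ADAMTS gene, at 248, 248, 222 and 226 CPM in Littermate 1 to 4 and from 212 to 296 CPM with a median of 227 CPM in the Experimental libraries. The groups overlapped, and the log2 fold change was 0.01 with a 95% interval of -0.19 to 0.20, which leaves out a change of the size seen for Mmp13 or Mmp15. Adamts4, an aggrecanase, was at 19.7, 12.5, 19.7 and 22.6 CPM in Littermate 1 to 4 and at 14.5, 9.19, 6.25, 8.25, 6.64 and 19.7 CPM in Experimental 1 to 6. Experimental 1 and 6 lay within the Littermate range and the other 4 lay below it. Its log2 fold change was -0.80 (95% interval -1.52 to -0.07, adjusted p = 0.378 by edgeR), and it reached an adjusted p of 0.0316, at -1.20, when Littermate 2 and Experimental 6 were left out together. The aggrecanase gene Adamts5 and the versican-cleaving Adamts9 had log2 fold changes of -0.21 and -0.24. Adamts8, Adamts15 and Adamts20 lay between -0.02 and 0.04.

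Adamts7 and Adamts12 encode proteases that cut cartilage oligomeric matrix protein. Adamts7 was at 10.6, 8.94, 12.9 and 15.0 CPM in Littermate 1 to 4 and ran from 6.61 to 10.8 CPM with a median of 7.52 CPM in the Experimental libraries. The groups overlapped, with Experimental 1 and 6 the highest of their group. Adamts7 had a log2 fold change of -0.52 (95% interval -0.88 to -0.15, adjusted p = 0.253 by edgeR). Leaving out Littermate 2 and Experimental 6 together brought it to -0.71 with an adjusted p of 0.0262. Adamts12 had a log2 fold change of -0.05. Adamts6, Adamts10 and Adamts17 had log2 fold changes of -0.01, 0.04 and -0.08. Adamts13, which cuts von Willebrand factor and is made mainly in the liver, had 65 counts over all libraries, and Adamts16, Adamts18 and Adamts19 had 16, 135 and 105.

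The 4 inhibitor genes were all expressed. Timp2, whose product both inhibits MMPs and helps Mmp14 activate the Mmp2 precursor, was the most abundant of them at 77.3 ± 13.1 RPKM (SD, n = 4) in the Littermate and 61.3 ± 4.27 RPKM (SD, n = 6) in the Experimental libraries. In CPM, Littermate 1 to 4 were at 311, 277, 249 and 368, and Experimental 1 to 6 were at 239, 212, 251, 248, 226 and 256. Only Littermate 3 lay within the Experimental range. Timp2 had a log2 fold change of -0.34 (SE 0.10, 95% interval -0.54 to -0.13), with an adjusted p of 0.203 by edgeR, and of -0.21 without Littermate 4.

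Timp1, the inhibitor induced in inflammation, was at 47.1, 28.9, 31.8 and 25.4 CPM in Littermate 1 to 4 and at 33.2, 19.9, 17.2, 19.4, 23.8 and 58.8 CPM in Experimental 1 to 6. Experimental 6 was the highest of all libraries, while 4 Experimental libraries lay below every Littermate library. Its log2 fold change was -0.22 (95% interval -1.05 to 0.61, adjusted p = 0.863 by edgeR), with -0.56 without Experimental 6 and 0.0026 without Littermate 1. Timp3, which binds the matrix and also inhibits aggrecanases, was at 265, 263, 216 and 250 CPM in Littermate 1 to 4 and ran from 205 to 268 CPM with a median of 247 CPM in the Experimental libraries. The groups overlapped, with a log2 fold change of -0.04 (95% interval -0.22 to 0.15, adjusted p = 0.913 by edgeR), and 21.3% of its exon bases overlap Syn3, the gene that contains it. Timp4 was at 18.1, 22.7, 20.5 and 24.8 CPM in Littermate 1 to 4 and ran from 17.4 to 32.1 CPM with a median of 21.8 CPM in the Experimental libraries, with a log2 fold change of 0.08 (95% interval -0.24 to 0.40, adjusted p = 0.883 by edgeR).

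Proteases were set against inhibitors by summed RPKM in each library, as a description. The MMP sum was 449 ± 51.9 RPKM (SD, n = 4) in the Littermate and 384 ± 65.4 RPKM (SD, n = 6) in the Experimental libraries. The TIMP sum was 161 ± 17.2 RPKM (SD, n = 4) and 140 ± 19.8 RPKM (SD, n = 6). The ratio of MMP to TIMP sums was 2.80 ± 0.226 (SD, n = 4) and 2.76 ± 0.348 (SD, n = 6), and all 3 of these quantities overlapped between the groups. The ratio of ADAMTS to TIMP sums was 0.804 ± 0.0593 (SD, n = 4) in the Littermate and 0.851 ± 0.0690 (SD, n = 6) in the Experimental libraries, also with overlap. It takes all 4 TIMPs together, of which Timp3 is the one named above for inhibiting aggrecanases. By median log2 fold change, the 33 tested proteases lay at -0.21 and the 4 inhibitors at -0.13.

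The share of Mmp13 in the MMP sum did not overlap between the groups. Mmp13 made up 2.69, 3.31, 1.89 and 1.20% of it in Littermate 1 to 4 and 5.56, 6.14, 5.34, 8.42, 9.56 and 4.01% in Experimental 1 to 6. Their means were 2.27 ± 0.923% (SD, n = 4) and 6.50 ± 2.08% (SD, n = 6). The ratio of Mmp13 to Timp1 overlapped, since Experimental 6 stood at 0.279 beside 0.209 to 0.440 in the Littermate libraries. The ratio of Mmp2 to Timp2 was 2.69 in the Littermate and 2.96 in the Experimental libraries, also with overlap.

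**Figure D4:**
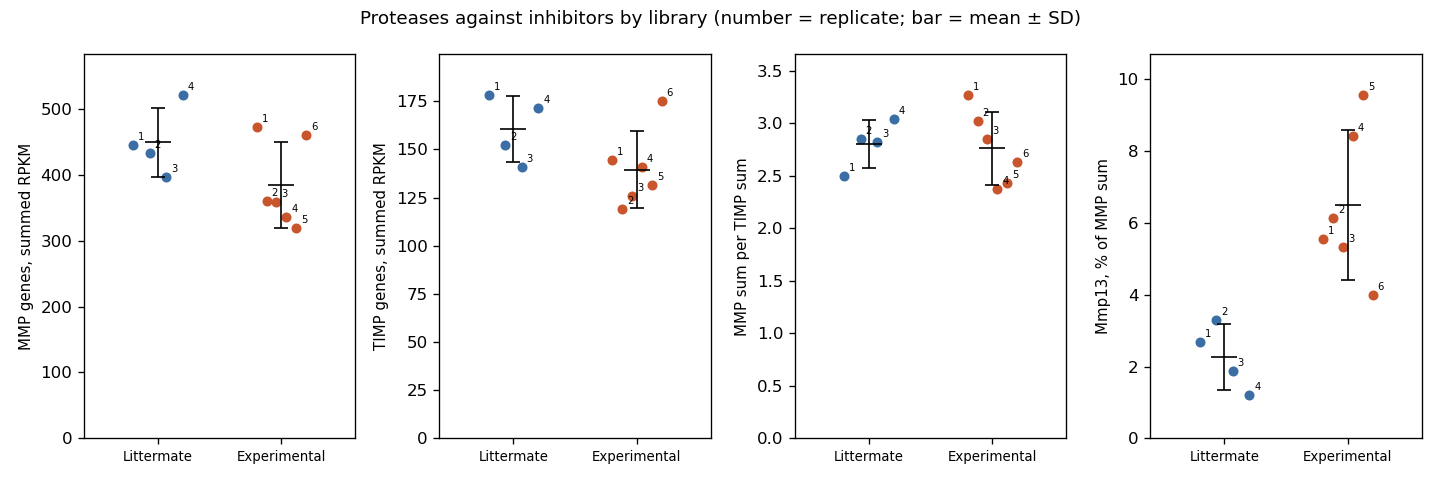
Summed RPKM of the MMPs and of the TIMPs, the ratio of these sums, and the share of Mmp13 in the MMP sum in percent, with 1 point per library and bars for the mean and SD of 4 Littermate and 6 Experimental libraries. The sums and their ratio overlap between the groups, while the Mmp13 share lies between 4.01 and 9.56% in the Experimental and between 1.20 and 3.31% in the Littermate libraries.

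The members also varied within the groups. Over the 37 tested members, the median coefficient of variation was 20.5% in the Littermate and 17.7% in the Experimental libraries. In the Experimental group it was above 40% for 7 members, a limit chosen after the values were seen: Mmp9 at 77.9%, Mmp10 at 58.9%, Timp1 at 55.0%, Mmp3 at 51.6%, Adamts4 at 49.2%, Mmp8 at 47.7% and Mmp19 at 44.2%. The highest Experimental value was in Experimental 1 or Experimental 6 for each of the 7. The list thus holds proteases and an inhibitor, from several roles. Neutrophil markers were at 298, 576, 337 and 317 summed CPM in Littermate 1 to 4 and at 252, 329, 268, 201, 307 and 495 in Experimental 1 to 6. Of the 13 neutrophil markers 6 were tested and none passed. All 6 had log2 fold changes below 0, with a median of -0.41, where 8489 of all 16830 genes tested lay below 0. Ly6g, Mpo, Elane, Ngp, Ltf and Camp were at or near 0. On average 79.9% of this sum came from S100a8 and S100a9, which keratinocytes also make and which the activated keratinocyte list holds too. Without them, a reduction chosen after the values were seen, the sum was 89.0, 55.2, 77.0 and 69.5 CPM in Littermate 1 to 4 and 53.6, 59.8, 44.6, 42.3, 57.6 and 101 CPM in Experimental 1 to 6. The part of neutrophils in these results was not tested.

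**Figure D5:**
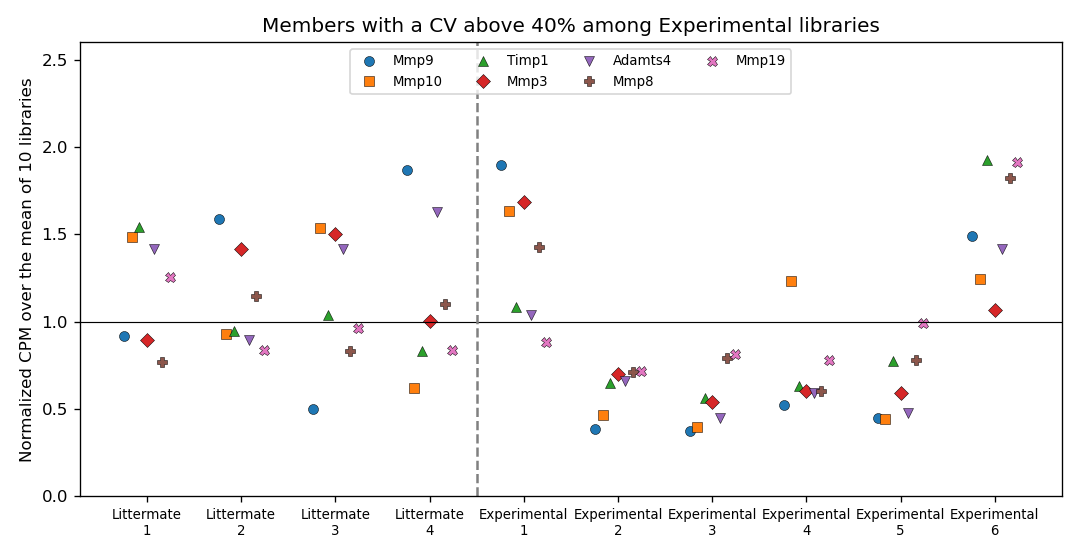
CPM of the 7 members with a coefficient of variation above 40% in the Experimental group, each divided by its mean over the 10 libraries, with 1 symbol per gene in each of the 4 Littermate and 6 Experimental libraries and a horizontal line at the mean. Experimental 1 or Experimental 6 is the highest Experimental library for each gene, for example Mmp9 at 1.90 in Experimental 1 and Timp1 at 1.93 in Experimental 6.

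Markers of the cell types that make these genes were read beside them. In bulk tissue, fewer cells of a type and less RNA per cell cannot be told apart. The 9 fibroblast markers summed to 7415, 5211, 5099 and 7928 CPM in Littermate 1 to 4 and to 4739 to 5807 CPM in the Experimental libraries, with none passing the test. On average 59.0% of that sum came from Col1a1 and Col1a2, which are also on the substrate list. The other 7 markers, a reduction chosen after the values were seen, summed to 2381, 2182, 2216 and 2392 CPM in Littermate 1 to 4. In the Experimental libraries they summed to 2074 to 2392 CPM. Dcn, Lum, Dpt and Pdgfra had log2 fold changes of 0.03, 0.02, 0.13 and -0.00. Pdgfrb had -0.32 (adjusted p = 0.267 by edgeR), Fbln1 -0.16 and Thy1 -0.13. Littermate 4, which had the highest sum with the 2 collagen genes, was also the highest library for Mmp14, Mmp15, Mmp17, Timp2, Adamts2, Adamts4 and Adamts7, and the part of fibroblasts in those values was not tested. The macrophage sum was 2545 to 2894 CPM in the Littermate and 1888 to 2809 CPM in the Experimental libraries, and of its 10 markers Lyz2 was lower in the Experimental group, by -0.91 on the log2 scale with an adjusted p of 0.0026 by edgeR. Mmp13 is also made by hypertrophic chondrocytes and osteoblasts. Col10a1, which marks hypertrophic chondrocytes, had a log2 fold change of 0.01, and the osteoblast genes Bglap, Sp7 and Dmp1 were too low to test. Of the other genes of that list of 7, Ibsp was at 0.584 CPM in the Littermate and 0.903 CPM in the Experimental libraries (log2 fold change 0.60, adjusted p = 0.687 by edgeR), Spp1 was at 45.9 and 29.5 CPM (-0.64, adjusted p = 0.34), and Runx2 had -0.23. The sum of the list, most of which came from Spp1 and Col10a1, was 73.4 to 87.6 CPM in the Littermate and 45.9 to 83.7 CPM in the Experimental libraries. Of 13 tested markers of ear cartilage 1 passed, Sox9, at -0.73 with an adjusted p of 0.0033 by edgeR, and their sums overlapped. Sox9 is also on the hair follicle list, in which 5 genes were tested and the median was 0.46, with Krt34 at 1.20, Hoxc13 at 0.51 and Msx2 at 0.46 (adjusted p = 0.306, 0.345 and 0.32 by edgeR). Most hair keratins of that list were too low to test, and its sum was 43.8 to 54.5 CPM in the Littermate and 37.2 to 49.4 CPM in the Experimental libraries. The skeletal muscle list had a median of -0.31 with 9 of 10 genes below 0 and Tnnc2 at -1.48 (adjusted p = 0.107 by edgeR). The mast cell list had a median of -0.19 with 6 of 6 below 0, where 8489 of all 16830 genes tested lay below 0. The part of these cell types in the members' values was not tested. The 6 basal keratinocyte markers had a median log2 fold change of 0.02.

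Other genes of the same pathways were followed through lists that do not contain members, and none of their genes passed the test. Among activators of MMP precursors, 14 genes were tested, of which 2 lay higher and 2 lower at an unadjusted p under 0.05. Over all genes tested, 3.65% lay higher and 8.1% lower at that p. Furin, the convertase that activates membrane-type MMPs, had a log2 fold change of -0.53 (adjusted p = 0.144 by edgeR), and the epithelial serine protease gene Tmprss2 had 0.40 (adjusted p = 0.255). Among 8 tested genes for other inhibitors and clearance, Lrp1, the receptor that takes up MMP13 and ADAMTS proteases, had -0.46 (adjusted p = 0.267), and the membrane-anchored inhibitor gene Reck had -0.00. Of 10 ADAM proteases, Adam15 lay lower without overlap, at 60.9 ± 6.88 CPM (SD, n = 4) against 45.5 ± 4.94 CPM (SD, n = 6) and a log2 fold change of -0.42 (adjusted p = 0.0918 by edgeR). Such a gap below the Littermate group was found for 1.35% of all genes tested. Of the 6 ADAMTS-like genes, Adamtsl4 had -0.39 (adjusted p = 0.253).

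The substrates of these enzymes were also followed. Of 19 substrate genes, 16 had a log2 fold change below 0, with a median of -0.24. At an unadjusted p under 0.05, 8 of them lay lower, and 0 passed after adjustment. Over all genes tested, 8489 of 16830 lay below 0, 8.1% lay lower at that p and 1.35% lay lower without overlap. The basement membrane collagen genes Col4a2 and Col4a1 had the lowest p-values of the list. Col4a2 lay at 298 ± 65.2 CPM (SD, n = 4) in the Littermate and at 194 ± 22.0 CPM (SD, n = 6) in the Experimental libraries without overlap, with a log2 fold change of -0.62 (adjusted p = 0.0834 by edgeR), and Col4a1 had -0.49 (adjusted p = 0.167). The cartilage collagen gene Col2a1 had -0.95 (adjusted p = 0.255). Among inducers and transcription factors of MMP genes, 17 were tested. Of these, 3 lay lower and 0 higher at an unadjusted p under 0.05, against 8.1% and 3.65% of all genes tested. They were Jun, Tgfb1 at -0.54 (adjusted p = 0.253) and Fos at -0.41 (adjusted p = 0.421), and the median of the list was -0.16. Runx2, a known activator of the Mmp13 gene, had an adjusted p of 0.432.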

How the data were processed

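Ribosomal RNA was removed from total RNA of whole ear skin and 50-base single reads were sequenced, per the labels' protocols. The submitters' processing notes name STAR 2.0.4b, Subread, featureCounts 1.4.5 and mm10. Which annotation release, strand setting and treatment of reads with several matches were used is not stated in the labels, notes or file headers. The deposited files hold whole-number counts per gene, with CPM and RPKM that the authors derived from those counts and the gene lengths, per the file headers. Recomputing both from the counts gave the deposited values.

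Symbols came from the mouse annotation for 97.3% of genes. The counts of all 10 libraries were filtered by expression within groups, scaled by TMM factors (0.984 to 1.02) and tested with edgeR 4.0.16's quasi-likelihood test in R 4.3.3, Littermate against Experimental, with no covariate, over 16830 genes. Benjamini-Hochberg adjusted p under 0.05 was called. CPM and RPKM printed here use the TMM factors. Biological variation between libraries was 12.8%. On simulated data with known changes, the test recovered 62% of 1.5-fold and 93% of 2-fold changes. There 100 genes were changed at each size, none of them among the genes of lowest level, and genes varied independently of each other. Of its 171 calls there, 16 were false. In the data only 3 genes passed, so a gene needed a lower unadjusted p to pass than in the simulation. Those shares therefore do not give the power for the members here.

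Described in full were members with an unadjusted p under 0.05 or without overlap, the 2 most abundant MMP and ADAMTS genes, and all TIMPs, with others by role and up to 3 genes per related list by lowest p. Reck and Runx2 of those lists were named outside that rule. Members and lists were chosen with earlier results of these data known. Alternatives were DESeq2 1.42.0, limma 3.58.1 voom with and without quality weights, other scalings and filters, a replicate block, a Y-linked covariate and each library left out. The GC correction and the removal of pairs of libraries were chosen after seeing the data. Motifs were searched in RefSeq promoters of GRCm38.p6.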

Additional observations from a re-analysis of the deposited data

Results flagged for a closer look

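Among 82 sets of values, covering the tested members, the family sums and the MMP to TIMP ratio in each group, 5 had 1 library far from the others of its group, and chance alone gives about 1 in 20. Adamts15 was at 94.6 CPM in Experimental 6, with the next library at 59.8 CPM. Adamts20 was at 7.87 CPM in Experimental 5, with the next at 6.45 CPM. Mmp11 was at 37.3 CPM in Littermate 4, with the next at 24.4 CPM. Mmp12 was at 19.9 CPM in Experimental 4, with the next at 14.9 CPM. Mmp19 was at 105 CPM in Experimental 6, with the next at 54.5 CPM. The gap took up 0.676, 0.715, 0.853, 0.688 and 0.768 of the group's range in that order.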

How the results depend on the processing

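The number of genes called over all genes moved from 3 to 78 with no filter on low counts, 227 with DESeq2, 60 with voom and quality weights, 67 with a replicate block, 563 without Littermate 2 and Experimental 6, and 2 with the Y-linked covariate. Leaving out each library in turn gave 3 to 343 genes, the 343 without Littermate 2, with 28 without Experimental 6 and 8 without Littermate 3. The members called moved from 0 to 1 with no filter (Mmp15), 2 with DESeq2, 2 with quality weights (Mmp13 and Mmp15 in both), 4 without Littermate 2 and Experimental 6 (Mmp13, Mmp15, Adamts4 and Adamts7) and 0 to 2 when 1 library was left out, the 2 being Mmp13 and Mmp15 without Littermate 2. The cause was not tested. Same-numbered libraries correlated at -0.02 to 0.09 in their deviations from the group means over 4 pairs. Of the 4 Littermate libraries, 1 correlated best with its own number. This gave no sign that the numbers pair the libraries, but with 4 pairs it cannot exclude it. The replicate block called 67 genes and 0 members.

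Mmp13 had a log2 fold change above 0 and Mmp15 one below 0 under all alternatives run. The log2 fold change of Mmp13 ran from 1.05 to 1.56, with adjusted p-values of 0.0365 with quality weights and 0.0175 at 1.56 without Littermate 2 and Experimental 6, and 1.49 without Littermate 2. Mmp15 ran to -0.66 without Littermate 2, and it was -0.44 without Littermate 4 and -0.39 with the Y-linked covariate, with adjusted p-values of 0.0473 with quality weights and 0.00931 without Littermate 2 and Experimental 6. An adjusted p under 0.05 was reached in 4 of the 22 alternatives for Mmp13 and in 5 of the 22 for Mmp15. The median of the inhibitors ran from -0.18 to 0.0029 when 1 library was left out and was 0.031 without Experimental 2 and 3, so the direction of that median rests on few libraries, while the median of the proteases ran from -0.22 to -0.06, with -0.08 without Littermate 4, -0.06 with the Y-linked covariate and -0.10 with the GC correction.

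Members that changed sign had no call. Most lay near 0, but Mmp10 (-0.39), Mmp25 (-0.23), Timp1 (-0.22), Mmp24 (-0.21) and Mmp2 (-0.21) also lost their direction under at least 1 alternative. With upper-quartile scaling Adamts15 was 0.0016, Adamts3 0.0001002 and Adamts6 0.0032. With voom Adamts6 was 0.0040, Adamts8 -0.0082, Mmp19 -0.013 and Mmp8 -0.056. With quality weights Adamts1 was -0.017, Adamts15 0.0077, Adamts6 0.086, Adamts8 -0.081, Mmp19 -0.15, Mmp8 -0.037 and Timp3 0.0015. With the replicate block Adamts1 was -0.049, Adamts17 0.0094, Adamts6 0.052, Adamts8 -0.066, Mmp19 -0.27 and Mmp8 -0.16. With the Y-linked covariate Adamts1 was -0.029, Adamts12 0.048, Adamts15 0.21, Adamts17 0.055, Mmp19 -0.10, Mmp2 0.017 and Mmp25 0.021. With the GC correction Adamts15 was 0.051. Without Experimental 2 and 3 Adamts15 was 0.013, Adamts3 0.056, Adamts6 0.0072, Mmp10 0.027, Timp1 0.039 and Timp3 0.023. Without Littermate 2 and Experimental 6 Adamts1 was -0.036, Adamts20 0.081, Adamts3 0.0086, Adamts6 0.17, Adamts8 -0.20, Mmp19 -0.28, Mmp8 -0.056 and Timp3 0.019. Leaving out 1 library gave Adamts1 -0.063 to 0.046, Adamts10 -0.0034 to 0.077, Adamts12 -0.14 to 0.052, Adamts15 -0.18 to 0.17, Adamts20 -0.080 to 0.057, Adamts3 -0.087 to 0.088, Adamts6 -0.13 to 0.14, Adamts8 -0.11 to 0.18, Mmp19 -0.22 to 0.21, Mmp23 -0.0018 to 0.20, Mmp24 -0.35 to 0.026, Mmp8 -0.16 to 0.19, Timp1 -0.56 to 0.0026, Timp3 -0.091 to 0.018 and Timp4 -0.033 to 0.16.

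The 4 Littermate libraries and a depth of 11520348 to 41935183 counts limit the precision. Wide intervals were not limited to low members: Mmp9 (-1.87 to 0.83) and Mmp3 (-1.27 to 0.31) had wider ones than Mmp17 (-0.97 to -0.11).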
